A study of Bos taurus with 9 samples.

Results

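The genes that carry the signal of the cytokines interleukin 6 and leukaemia inhibitory factor to the transcription factor STAT3 were examined in individual bovine blastocysts. The group has 9 members, *IL6*, *LIF*, *IL6R*, *LIFR*, *IL6ST*, *JAK1*, *JAK2*, *STAT3* and *SOCS3*, found by gene symbol among the 21512 genes of the deposited table. *IL6* was picked on its higher values in *TEAD4* knockout (KO) embryos, so its values are given as a description with no test. The other 8 members were listed for their function, as receptors, kinases and response genes of the same signal, and were compared between the genotypes.

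Whole embryos, with inner cell mass and trophectoderm together, were collected on day 8 (D8) after *in vitro* fertilization and culture, 5 of them wild type (WT) and 4 TEAD4-/-. The KO embryos came from oocytes injected with *Cas9* mRNA and a guide RNA against *TEAD4*, and contained only alleles with frame-disrupting indels made at random, so that the alleles can differ from embryo to embryo. The WT embryos contained no mutated allele; in the study's methods, embryos injected with *Cas9* mRNA alone form this class. Each library comes from 1 embryo, and the libraries are named WT_1 to WT_5 and TE_1 to TE_4, where TE marks the KO embryos.

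Interleukin 6 binds its receptor IL6R, and leukaemia inhibitory factor binds LIFR; both then use the shared signalling chain gp130, encoded by *IL6ST*. The bound receptors activate the Janus kinases JAK1 and JAK2, which phosphorylate STAT3, and phosphorylated STAT3 enters the nucleus and activates genes such as *SOCS3*, whose product inhibits the same kinases. In mouse embryonic stem cells this route sustains self-renewal, and in bovine blastocysts interleukin 6 has been linked to inner cell mass and hypoblast development. Transcript levels do not show the phosphorylation of STAT3, which carries the signal.

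Values are TPM, transcripts per 1000000 transcripts, which are corrected for transcript length, so that levels of different genes can be compared. Each library sums to 1000000 TPM and had between 14776 and 16678 genes above 0. TPM does not keep read numbers, so the depth behind a single value is unknown. *TEAD4* itself was at 18.0 to 54.3 TPM in WT and at 12.5 to 42.8 TPM in KO libraries; these ranges overlap, and TPM does not show whether a transcript carries an indel. Of the markers of the labelled tissue, the trophectoderm keratin *KRT8* was at 2721 TPM or more and *POU5F1*, a pluripotency factor whose transcripts are not restricted to the inner cell mass in cattle, at 773 TPM or more in every library. More restricted inner cell mass markers were low in WT_1, with *NANOG* at 0.127 TPM and *SOX2* at 3.89 TPM, and in TE_3, with 3.55 and 2.26 TPM. *FGF4* was listed at 0 in both. In TE_2 these markers differed, with *NANOG* at 2.70 TPM, below its value in TE_3, and *FGF4* at 0.204 TPM, but *SOX2* at 21.0 TPM. In whole embryos, fewer cells of a type and less RNA per cell cannot be told apart.

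*IL6* had 78.1, 12.3, 41.2, 20.8 and 11.6 TPM in WT_1 to WT_5, respectively, and 51.5, 224, 169 and 238 TPM in TE_1 to TE_4. In 3 of the 4 KO embryos it was above every WT embryo, while TE_1 fell between WT_3 and WT_1, so that the groups overlapped. KO blastocysts averaged 171 ± 84.8 TPM (SD, n = 4) and WT blastocysts 32.8 ± 28.0 TPM (SD, n = 5), a ratio of the means of 5.20. On the scale of log2(TPM + 1), the difference of KO minus WT was 2.50 with a standard error of 0.59. Of the 14599 genes tested, 14 had a more positive difference. *IL6* was picked on these values, so neither its difference nor this position is a test. Those 14599 genes had a median above 0.1 TPM over the 9 libraries.

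*IL6* ranked between 2024 and 5930 among all genes of a WT library, counted from the highest TPM. In the KO libraries it ranked between 829 and 1000 in TE_2, TE_3 and TE_4 and at 2206 in TE_1. It was the member with the highest level in 5 libraries, WT_1 and the 4 KO libraries. In WT_2 and WT_5 that member was *IL6ST*, and in WT_3 and WT_4 it was *STAT3*.

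**Figure D1:**
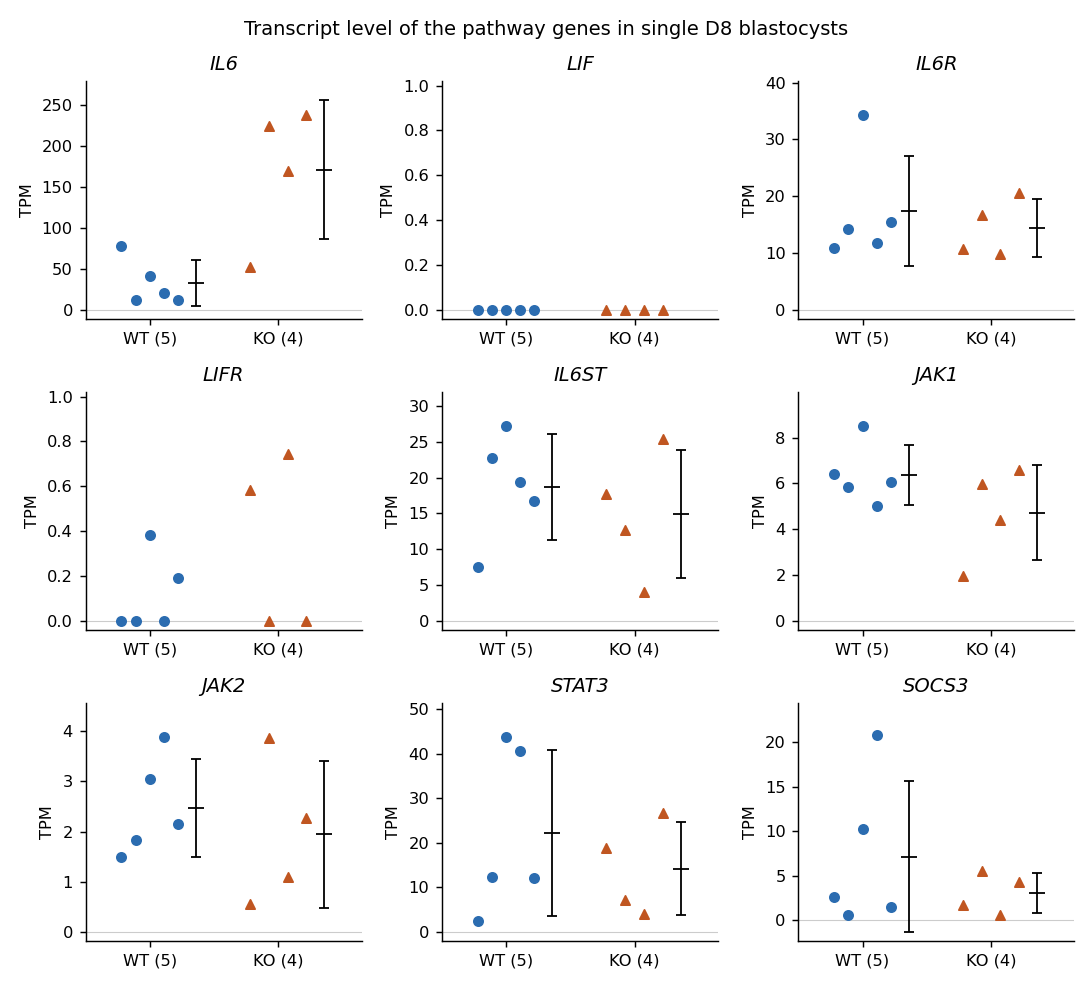
TPM (linear axes) of the 9 pathway genes in each WT (circles) and KO (triangles) blastocyst; the horizontal tick with bars is the mean ± SD of a group, not drawn for *LIF* and *LIFR*, which have values listed at 0. *IL6* was above every WT embryo in 3 of 4 KO embryos, *LIF* was listed at 0 in all 9 libraries, and the values of the other genes overlapped between the genotypes.

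*LIF*, the other ligand of the group, was listed at 0 in all 9 libraries. *LIFR*, the receptor that leukaemia inhibitory factor needs, was listed at 0 in WT_1, WT_2, WT_4, TE_2 and TE_4, and its values elsewhere were 0.382 TPM in WT_3, 0.189 TPM in WT_5, 0.585 TPM in TE_1 and 0.744 TPM in TE_3. Both genes stayed under the filter of a median above 0.1 TPM and were not tested. Of the ligands in the group, *IL6* was thus the one with measured transcripts, in both genotypes.

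Both subunits of the interleukin 6 receptor had transcripts in every library. *IL6R*, which encodes the chain that binds the cytokine, had 10.9, 14.3, 34.4, 11.8 and 15.4 TPM in WT_1 to WT_5, respectively, and 10.6, 16.7, 9.80 and 20.6 TPM in TE_1 to TE_4. WT_3 stood highest, and the other WT values lay within the range of the KO values. The log2 difference of KO minus WT was −0.18 (standard error 0.37, 95% interval −0.99 to 0.62, adjusted p = 0.982 from limma), and it was 0.084 without WT_3.

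*IL6ST*, which encodes gp130, had 7.57, 22.7, 27.2, 19.4 and 16.7 TPM in WT_1 to WT_5, respectively, and 17.8, 12.7, 4.06 and 25.3 TPM in TE_1 to TE_4. WT_1 and TE_3 were the low libraries of their groups. The log2 difference was −0.43 (standard error 0.49, 95% interval −1.49 to 0.63, adjusted p = 0.971 from limma), and it was 0.045 without TE_3. Within a library, the ratio of *IL6R* to *IL6ST* was between 0.607 and 1.44 in WT and between 0.599 and 2.42 in KO.

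The ligand exceeded the receptor by more in KO than in WT libraries, a difference that follows from the values on which *IL6* was picked. The ratio of *IL6* to *IL6R* was 7.15, 0.859, 1.20, 1.77 and 0.752 in WT_1 to WT_5 and 4.84, 13.4, 17.2 and 11.5 in TE_1 to TE_4. The WT_1 embryo had a ratio above that of TE_1.

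Of the kinases, *JAK1* was more abundant than *JAK2* in each of the 9 libraries, by a factor between 1.30 and 4.31. *JAK1* had 6.40, 5.84, 8.52, 5.04 and 6.07 TPM in WT_1 to WT_5, respectively, and 1.97, 6.0, 4.39 and 6.57 TPM in TE_1 to TE_4, with TE_1 and TE_3 below every WT embryo. Its log2 difference was −0.43 (standard error 0.34, 95% interval −1.18 to 0.32, adjusted p = 0.941 from limma). Without TE_1 the difference was −0.15.

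*JAK2* had 1.48, 1.83, 3.05, 3.88 and 2.15 TPM in WT_1 to WT_5, respectively, and 0.558, 3.86, 1.09 and 2.27 TPM in TE_1 to TE_4. The same KO libraries, TE_1 and TE_3, were below every WT embryo, and TE_2 was close to the highest one. The log2 difference was −0.33 (standard error 0.36, 95% interval −1.13 to 0.46, adjusted p = 0.971 from limma), and it was −0.070 without TE_1.

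*STAT3* differed widely between embryos of the same genotype. It had 2.36, 12.3, 43.8, 40.6 and 12.2 TPM in WT_1 to WT_5, respectively, and 18.9, 7.23, 4.12 and 26.6 TPM in TE_1 to TE_4. No KO value was outside the WT range. The log2 difference was −0.39 (standard error 0.74, 95% interval −2.0 to 1.23, adjusted p = 0.982 from limma), and it was 0.036 without TE_3.

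*SOCS3*, the feedback inhibitor that STAT3 induces, did not show the pattern of *IL6*. Its values were 2.62, 0.620, 10.3, 20.8 and 1.52 TPM in WT_1 to WT_5 and 1.71, 5.50, 0.637 and 4.32 TPM in TE_1 to TE_4. The highest were in WT_4 and WT_3, both of which had less *IL6* than any KO embryo, and TE_3 combined 169 TPM of *IL6* with 0.637 TPM of *SOCS3*. The log2 difference was −0.55 (standard error 0.72, 95% interval −2.13 to 1.03, adjusted p = 0.982 from limma), and it was −0.030 without WT_4.

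**Figure D2:**
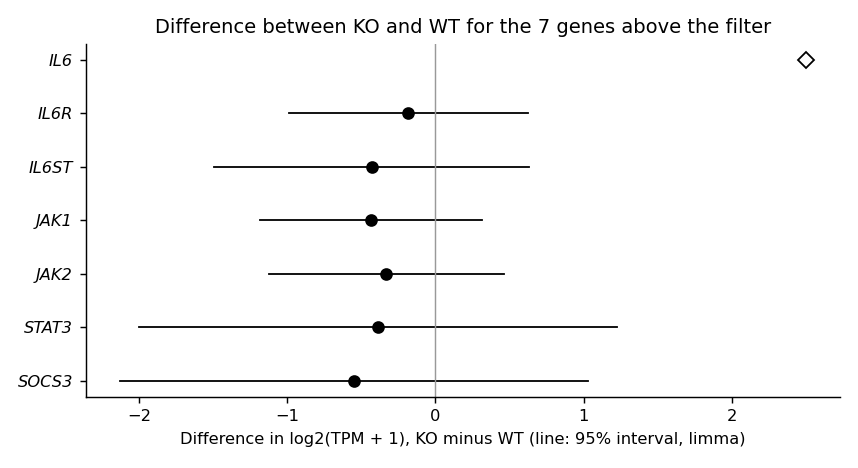
Difference in log2(TPM + 1) of KO minus WT for the 7 members above the filter on low values; lines are 95% intervals from limma, and the open diamond of *IL6*, the gene picked on this difference, has none. The 6 other genes lie between −0.55 and −0.18, and each interval includes 0.

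None of the 6 members tested other than *IL6* was called changed (log2 difference beyond 1 in either direction with an adjusted p-value under 0.05), where 3 of the 14599 genes, 0.0205%, were called. None of the 6 had an unadjusted p-value under 0.05, against 2.07% of all genes tested with higher and 3.83% with lower values in KO. None had groups that did not overlap, against 0.801% of all genes with every KO library above every WT library and 1.23% with every KO library below. All 6 had a lower mean of log2(TPM + 1) in KO, with a median difference of −0.41. Over all genes tested, 55.8% had a lower mean and the median difference was −0.046. The 6 genes were read from the same 9 libraries and are not independent. With TPM divided by size factors of 0.776 (TE_1) to 1.26 (TE_2), which moved the median of all genes to −0.0074, the 6 were again lower, with a median of −0.35. The count and the median rested partly on single libraries: 4 of the 6 were lower without TE_3, with a median of −0.11, and the median was −0.27 without WT_3, where 5 were lower, −0.24 without WT_4 and −0.67 without TE_4. The intervals include decreases of more than 1 log2 unit for every gene but *IL6R*, and increases of that size for *STAT3* and *SOCS3*, so that differences of that size are not excluded by the values of 5 and 4 embryos.

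In order of the mean level, WT blastocysts had *IL6*, *STAT3*, *IL6ST* and *IL6R* first, at 32.8, 22.2, 18.7 and 17.3 TPM. They were followed by *SOCS3* at 7.17, *JAK1* at 6.37 and *JAK2* at 2.48 TPM. In KO blastocysts the order was *IL6* at 171 TPM, then *IL6ST*, *IL6R* and *STAT3* at 15.0, 14.4 and 14.2 TPM, then *JAK1* at 4.73, *SOCS3* at 3.04 and *JAK2* at 1.94 TPM. The ranges of neighbours among these 7 genes overlapped, with the exception of *IL6* in KO, whose lowest value of 51.5 TPM was above every value of the other members in that genotype, and of *JAK1* and *JAK2* in WT.

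*STAT3* was set beside the epiblast markers library by library, and these did not all rank the libraries alike. *SOX2*, a transcription factor of the inner cell mass, had 3.89, 19.5, 68.2, 90.4 and 27.7 TPM in WT_1 to WT_5, respectively, and 30.6, 21.0, 2.26 and 42.4 TPM in TE_1 to TE_4. WT_3, WT_4 and TE_4 had the 3 highest values of both *SOX2* and *STAT3*, and WT_1 and TE_3 the lowest of both. *PRDM14*, another pluripotency factor, was at 2.86 TPM in WT_1 and 4.27 TPM in TE_3, its lowest values, and at 92.6 TPM in WT_4, its highest. Other markers ranked the libraries differently. *POU5F1* was highest in TE_2, at 2142 TPM, where *STAT3* was at 7.23 TPM, and *NANOG* was higher in WT_5 and TE_1, at 90.2 and 53.3 TPM, than in TE_4, at 26.3 TPM. *SOX2* and *PRDM14* were chosen after their values were seen, and the part of the cell types of an embryo in the level of *STAT3* was not tested.

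**Figure D3:**
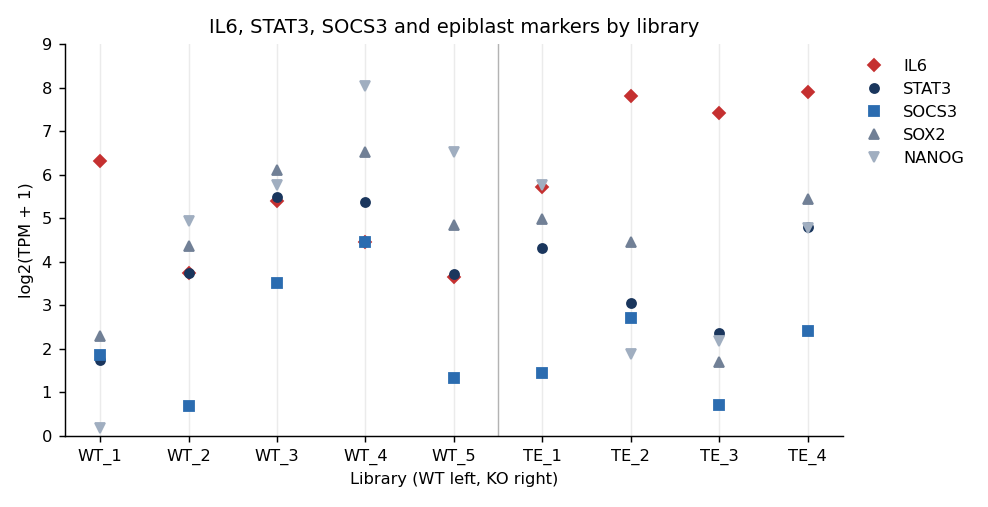
log2(TPM + 1) of *IL6*, *STAT3*, *SOCS3* and the epiblast markers *SOX2* and *NANOG* in each library. *STAT3* and *SOX2* were both lowest in WT_1 and TE_3 and highest in WT_3 and WT_4, whereas *IL6* was highest in TE_2, TE_3 and TE_4.

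Of 8 other ligands of the interleukin 6 family, 7 were found by symbol and *IL11* was not, so its level is unknown. *OSM* was listed at 0 in every library, and 5 ligands were tested. None of the 5 had an unadjusted p-value under 0.05, against 2.07% of all genes tested with higher and 3.83% with lower values in KO. *IL27*, which encodes a subunit of interleukin 27, had the highest level, at 5.27 to 21.3 TPM in WT and 4.17 to 43.5 TPM in KO embryos (log2 difference 0.78, standard error 0.61, adjusted p = 0.938 from limma). Of the receptors for these ligands, *IL11RA*, the receptor of interleukin 11, had the highest level, with means of 14.6 ± 6.10 TPM in WT (SD, n = 5) and 7.54 ± 6.06 TPM in KO (SD, n = 4) (log2 difference −1.16, standard error 0.57, adjusted p = 0.847 from limma). *CNTFR* was the only other receptor above the filter, at 0.835 and 0.683 TPM on average.

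The other Janus kinase and STAT genes were lower in level than *STAT3* on average. *STAT2*, a transcription factor of the interferon response, had mean levels of 4.91 and 4.21 TPM in WT and KO embryos, respectively. None of the 6 genes tested in this list had an unadjusted p-value under 0.05. *STAT4* and *STAT6* stayed under the filter.

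Among the 15 inhibitors of the pathway, none was called and 1 had an unadjusted p-value under 0.05, with lower values in KO. The share of such genes over all genes tested was 3.83%. *SOCS6*, of the same family as *SOCS3*, had means of 8.47 ± 1.32 TPM in WT (SD, n = 5) and 4.52 ± 2.27 TPM in KO (SD, n = 4), with 3 KO embryos below every WT embryo (log2 difference −0.86, standard error 0.33, adjusted p = 0.764 from limma). *SOCS1*, which is induced by cytokines as *SOCS3* is, was at 7.79 to 49.1 TPM in WT and 11.3 to 31.7 TPM in KO embryos. The median difference of the 15 inhibitors was −0.075, near that of all genes.

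No response gene of STAT3 passed the test with higher values in KO. Of 25 genes listed, 24 were in the table and 22 were tested; none was called, none had an unadjusted p-value under 0.05 with higher values in KO, and 3 had one with lower values, where the shares over all genes were 2.07% higher and 3.83% lower. *MYC*, a growth-promoting transcription factor, had 12.3 ± 4.95 TPM in WT (SD, n = 5) and 5.41 ± 3.29 TPM in KO (SD, n = 4) (log2 difference −1.22, standard error 0.50, adjusted p = 0.784 from limma). The kinase gene *PIM3* was at 46.0 ± 14.8 and 25.0 ± 11.7 TPM (−0.90, standard error 0.35, adjusted p = 0.765 from limma). *ZFP36*, whose product destabilises cytokine mRNAs, was at 43.2 ± 9.39 and 26.7 ± 16.0 TPM (−0.80, standard error 0.34, adjusted p = 0.805 from limma). WT and KO values of all 3 overlapped. The median difference of the 22 genes was −0.27, and 14 of them had a lower mean in KO. Many of these genes also respond to other signals.

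Over these ligands, receptors, kinases, STATs, inhibitors and response genes together, 50 genes besides the 9 members were tested. None was called, 0 had an unadjusted p-value under 0.05 with higher and 4 with lower values in KO, and 0 had groups without overlap in either direction. Over all genes tested the shares were 0.0205% called, 2.07% and 3.83% with such a p-value and higher or lower values, and 0.801% and 1.23% without overlap. Their median difference was −0.14.

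**Figure D4:**
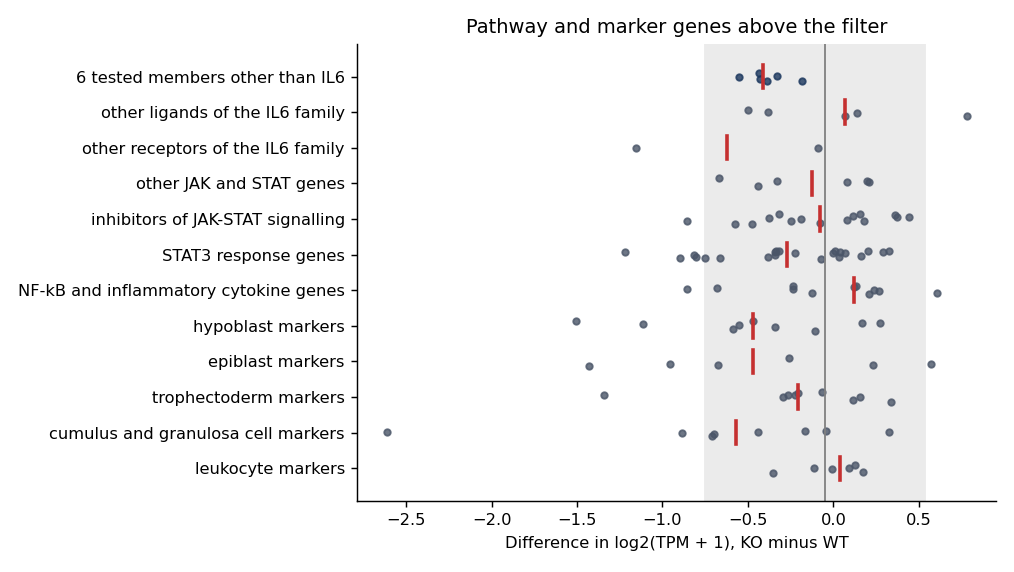
Difference in log2(TPM + 1) of KO minus WT of each gene above the filter, by list (points; red bars are list medians); the grey band spans the 5th to the 95th percentile of all 14599 genes tested and the grey line is their median. The 6 members other than *IL6* have a median of −0.41 and lie within the band.

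NF-kB and inflammatory cytokine genes, which are known to be induced together with *IL6* in immune and epithelial cells, held no called gene among the 11 tested. *TNF*, *CXCL8* and *CCL2* stayed under the filter, while *PTGS2*, which makes prostaglandins, was at 177 to 1099 TPM in WT and 85.1 to 871 TPM in KO embryos. *NFKBIZ*, a cofactor of NF-kB that promotes *IL6* transcription in other cells, was the 1 gene whose KO values all lay below those of WT, with means of 0.697 ± 0.581 TPM (SD, n = 4) and 1.60 ± 0.206 TPM (SD, n = 5), a log2 difference of −0.68 (standard error 0.25, adjusted p = 0.743 from limma). *IL1B* averaged below 1 TPM in both genotypes. The shares over all genes tested were 1.23% with every KO library below every WT library and 0.0205% called. Of the 11 genes, 6 had a higher and 5 a lower mean of log2(TPM + 1) in KO, with a median difference of 0.12.

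Hypoblast markers were compared because interleukin 6 acts on this lineage. None of the 9 tested was called. *GATA4* alone had groups that did not overlap, against 1.23% of all genes with every KO library below every WT library. Its level was 1.46 ± 0.285 TPM in WT (SD, n = 5) and 0.640 ± 0.243 TPM in KO (SD, n = 4) (log2 difference −0.59, standard error 0.20, adjusted p = 0.684 from limma). Of the 9, 7 had a lower and 2 a higher mean of log2(TPM + 1) in KO, and the median difference of the list was −0.47. Of the 9 trophectoderm markers, none was called, 6 had a lower and 3 a higher mean in KO, and the median difference was −0.20. *TFAP2A*, the 1 with an unadjusted p-value under 0.05, averaged 8.28 and 2.83 TPM (−1.34, standard error 0.50, adjusted p = 0.745 from limma). Over all genes tested, 3.83% had such a p-value and lower values in KO. The summed level of the 9 markers was 4079 to 18010 TPM in WT and 6604 to 12420 TPM in KO. The 7 epiblast markers summed to 897 to 2473 TPM in WT and 1523 to 2441 TPM in KO, mostly from *POU5F1*. The median difference of the 6 tested was −0.47, like that of the hypoblast list, and none had an unadjusted p-value under 0.05. Of the 6, 4 had a lower and 2 a higher mean of log2(TPM + 1) in KO. *NANOG* had means of 87.0 and 21.5 TPM in WT and KO (log2 difference −1.43), and *SOX2* of 41.9 and 24.1 TPM (−0.68). The 2 with the highest level were higher in KO. *POU5F1* had means of 1176 and 1709 TPM (0.57, standard error 0.26), and *DPPA3* of 211 and 239 TPM (0.23, standard error 0.31).

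Cumulus cells and leukocytes, which can express *IL6*, were sought by their markers. *PTPRC*, which marks leukocytes, was listed at 0 in all libraries, and the 8 leukocyte markers summed to 7.86 to 18.3 TPM in WT and 6.12 to 18.7 TPM in KO. Of the 12 cumulus and granulosa markers, *PTX3*, *HAS2*, *VCAN* and *INHA* were at or below 0.520 TPM in every library. Other markers of the list were present. *FSHR*, the receptor of follicle-stimulating hormone, was at 12.1 to 26.8 TPM in WT and 1.36 to 23.3 TPM in KO, *STAR* at 1.62 to 11.7 TPM over the 9 libraries, and *TNFAIP6* at up to 2.08 TPM in WT and 0.290 TPM in KO. The list summed to 80.3 to 267 TPM in WT and 9.18 to 129 TPM in KO. *CYP11A1*, a steroid-producing enzyme also known from trophoblast, made up most of that sum in the WT libraries and TE_3 and averaged 129 and 33.8 TPM (log2 difference −2.61, standard error 0.73, adjusted p = 0.566 from limma). *LUM* averaged 1.38 and 0.174 TPM (log2 difference −0.89, standard error 0.35, adjusted p = 0.765 from limma). The median difference of the 8 genes tested was −0.57, none was called, and *CYP11A1* and *LUM* were the 2 with an unadjusted p-value under 0.05. Over all genes tested, 3.83% had such a p-value and lower values in KO. The part of these markers in the level of *IL6* was not tested.

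The genes whose log2(TPM + 1) followed that of *IL6* most closely over the 9 libraries were *FBXO44* (Pearson's r = 0.960), *ZSCAN4* (0.951), *ESRRB* (0.950), *FN3KRP* (0.937) and *YJU2* (0.936), taken as a description from all genes tested. These points share their libraries and the difference between the genotypes on which *IL6* was picked. *ZSCAN4*, a gene of early embryos and of a subset of mouse embryonic stem cells, had 35.3, 2.98, 11.2, 7.44 and 3.87 TPM in WT_1 to WT_5, respectively, and 6.61, 60.0, 38.4 and 47.3 TPM in TE_1 to TE_4. *ESRRB*, a nuclear receptor of the pluripotency network, had 70.1, 49.1, 66.9, 42.0 and 42.7 TPM in WT_1 to WT_5, respectively, and 57.4, 95.9, 104 and 93.4 TPM in TE_1 to TE_4. In both genes, as in *IL6*, *FBXO44* and *YJU2*, TE_2, TE_3 and TE_4 were above every WT embryo, WT_1 was the highest WT embryo and TE_1 was below WT_1. In *FN3KRP*, TE_3 at 27.9 TPM was below WT_1 at 30.6 TPM. The 5 genes were taken for their likeness to *IL6*, so a similar order of the libraries was built in.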

How the data were processed

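The deposited table holds TPM, which the authors made from reads pseudoaligned after quality control, 1 library per blastocyst. The submitters' processing notes name FastQC, fastp and kallisto; their versions, the genome build, the annotation and how transcripts were summed per gene are not given in the sources used here, so no coordinates are given. The labels and the paper's methods describe different RNA extraction, library and sequencing kits, and no batch is named. Columns were assigned to a genotype by name; all 9 were used. All 9 member symbols are in the RefSeq annotation ARS-UCD2.0.

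The paper's DESeq2 test needs counts, which TPM does not keep. Genes with a median above 0.1 TPM were tested on log2(TPM + 1) with limma 3.58.1 in R 4.3.3 (eBayes with a trend, Benjamini-Hochberg adjustment over all genes tested), after a check on simulated data. Differences are KO minus WT and are understated for low genes. The members and gene lists were chosen with earlier results of these data known. Genes named from a list were those called, else those with an unadjusted p-value under 0.05 or without overlap, else the 2 with the highest mean TPM. The 5 genes with the highest Pearson's r with *IL6* were also named. *SOX2*, *NANOG*, *PRDM14*, *SOCS1*, *FSHR*, *STAR*, *TNFAIP6*, *CYP19A1*, *FOXL2* and genes named as low were chosen after their values were seen. Tables used Python 3.11.15, numpy 2.4.6 and pandas 2.3.3, and plots matplotlib 3.10.9. Other settings tried were no filter, a pseudocount of 0.1 TPM, a median above 1 TPM, size factors, quantile normalization, limma without trend or robust, and leaving out each library.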

Additional observations from a re-analysis of the deposited data

How the results depend on the processing

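Of the 16 alternative fits, none called a member other than *IL6*. The difference of *IL6*, the gene picked on it, stayed positive in all 16, between 2.24 and 3.0, which is a description and no test. *JAK1*, *JAK2* and *SOCS3* stayed lower in KO in all 16. *IL6R*, *IL6ST* and *STAT3* each turned in 1: leaving out 1 library gave *IL6R* −0.37 to 0.084 (without WT_3), *IL6ST* −0.75 to 0.045 (without TE_3) and *STAT3* −0.95 to 0.036 (without TE_3). The number of genes called over the whole table moved from 3 to 2 with no filter on low values, 8 with a pseudocount of 0.1 TPM, 8 with a median above 1 TPM, 5 with size factors, 6 with quantile normalization, 5 without trend and 6 with robust eBayes in limma. Leaving out 1 library gave 0 (without WT_3, WT_4, TE_1, TE_2 or TE_4; 824 to 1235 genes had an unadjusted p-value under 0.05 in those limma fits) to 10 (without TE_3). No paired analysis was possible because the embryos of the genotypes are separate individuals without a shared number in the labels. The depth behind low values, such as those of *LIFR*, is unknown.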
